A study of Danio rerio with 18 samples.

Results

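The genes described here encode neurotransmitter receptors and voltage-gated or related ion channels of the zebrafish (Danio rerio). They were picked out by a rule on gene symbols. It covers the families of GABA, glycine, ionotropic and metabotropic glutamate, nicotinic, muscarinic, serotonin and dopamine receptors, and of potassium, sodium, calcium and HCN channels. The choice was made with earlier results of these data known. The rule found 42 genes among the 8793 that the array names by a single symbol. By the start of their symbols, 10 belong to excitatory receptors, 8 to inhibitory receptors, 6 to modulatory receptors coupled to G proteins and 18 to voltage-gated and related channels. No metabotropic glutamate receptor was among them. All 42 were found in RefSeq by gene number, under the same symbol.

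Gene expression was measured in the NMLF, the nucleus of the medial longitudinal fascicle, a midbrain group of neurons that project to the spinal cord and regrow their axons after it is cut. The NMLF region was cut out of the brain by laser in fish whose spinal cord had been transected, and in fish given sham surgery, 4 h, 12 h and 11 d after the operation. Each of the 6 groups had 3 Affymetrix arrays, 18 in all, and each time had its own sham group. The times were set by the submitters to separate early events from those of the period of regrowth. Strain, age and sex of the fish are not given in the labels, and they tie no sample to an animal or a pool of animals. P-values therefore cover only the spread between the samples at hand, which may be technical, and would be too low where 1 animal gave several samples. The captured region holds NMLF neurons together with the cells around them. In such bulk tissue, fewer cells of a type and less RNA per cell cannot be told apart.

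Ligand-gated channels turn a released transmitter into current within milliseconds: glutamate and acetylcholine open cation channels that excite, while GABA and glycine open chloride channels that mostly inhibit. G protein-coupled receptors for dopamine, serotonin and acetylcholine act more slowly, through second messengers. Voltage-gated sodium channels carry the action potential, potassium channels repolarise the membrane and set firing patterns, and calcium channels link firing to transmitter release and gene expression. Reticulospinal neurons such as those of the NMLF receive glutamatergic drive and strong glycinergic and GABAergic inhibition, and in many kinds of neuron axotomy is known to alter excitability and synaptic input.

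Each array gives 1 signal per probe set, on a linear scale. Signals were quantile normalized over the 18 arrays, raised to a floor of 16 where they lay below it and taken to log2. Values below are normalized signals, group levels are geometric means, and differences are log2 transected minus sham with the standard error (SE) of a linear model over all arrays (limma), n = 3 arrays per group. The number of arrays limits the precision. A probe set's brightness depends on its sequence, so levels are not compared between genes. Of the 42 genes, 22 lay above the floor on all 18 arrays, 16 on some arrays, and 4 on none (chrne, htr5ab, cacng1a and scn1laa). The same 22 had a mean signal of at least 32 and are called the brighter genes below. The 10 neuron markers measured, among them elavl3, snap25a and stmn1b, lay above the floor on every array, and their summed signal spanned 13646 to 23467. By contrast, the muscle-type genes chrna1, chrne and cacng1a lay at the floor on at least 17 of the 18 arrays.

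Some arrays stood apart. On 6 arrays most of the brighter genes lay below their own 18-array mean: transected replicate 1 and sham replicate 1 at 4 h, and transected replicates 1 and 2 and sham replicates 1 and 2 at 11 d. On these 6 arrays between 9.09% and 31.8% of the 22 genes lay above their mean, against 50.0% to 86.4% on the other 12. Over all 8984 probe sets with a mean signal of at least 32 the share was 46.6% to 53.1% on every array. Quantile normalization gives every array the same distribution of signals, which tends to hold that share level. The contrast therefore does not show that the split is particular to these genes. The first principal component of the 18 arrays, taken over all 15502 tested probe sets, held 29.2% of the variance. It was between -43.0 and -22.1 on those 6 arrays and between 0.25 and 48.4 on the rest. The same 6 arrays were thus set apart over all probe sets too. The median deviation of the 5 erythrocyte markers was 0.56 and 0.52 (log2) on the transected and sham arrays of replicate 1 at 4 h. It was -0.04 and 0.44 on transected replicates 1 and 2 at 11 d, and 1.29 and 0.53 on sham replicates 1 and 2 at 11 d. On the other 12 arrays it was between -0.76 and 0.02. The 10 neuron markers deviated by -0.36 to 0.26 over all arrays, lowest on transected replicate 1 at 4 h. Other cell type markers shifted as well. Medians of oligodendrocyte and myelin markers were 0.04 to 0.32 on the 6 arrays, against -0.36 to 0.24 on the other 12. Those of leukocyte and microglia markers were -0.07 to 0.52, against -0.49 to 0.29. For radial glia and astrocyte markers they were -0.03 to 0.21, against -0.20 to 0.08, and for endothelium markers -0.45 to 0.12, against -0.18 to 0.34. What part these differences between arrays have in the results was not tested. The 3′ over 5′ signal ratio of the GAPDH control probe sets, a sign of RNA quality and of amplification, was 3.15 to 5.40 on the 12 h arrays and 1.39 to 2.88 on the others.

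**Figure D1:**
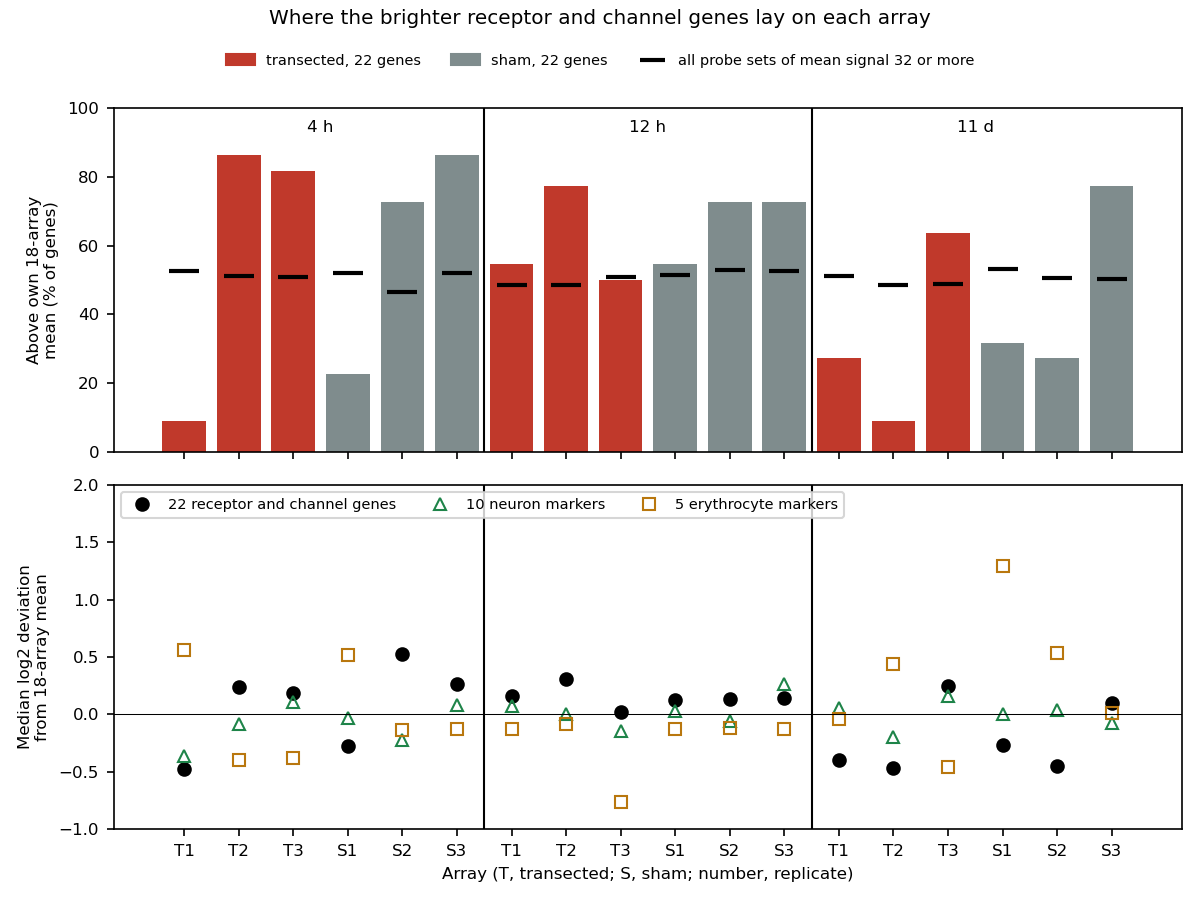
Upper panel: bars give the percentage of the 22 brighter receptor and channel genes that lay above their own mean over 18 arrays, on each transected (red) and sham (grey) array, and black marks give the same for all probe sets with a mean signal of at least 32. Lower panel: median log2 deviation from the 18-array mean of the 22 genes (circles), of 10 neuron markers (triangles) and of 5 erythrocyte markers (squares). The bars are low on 6 arrays, which include transected and sham samples alike. The black marks lie between 46.6% and 53.1%, which quantile normalization tends to hold level.

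No receptor or channel gene passed an adjusted p of 0.05 between transected and sham samples at any time. This was 0 of 42 genes at 4 h, where 0% of all 15502 probe sets passed, 0 of 42 at 12 h, where 0.0258% did (4 probe sets), and 0 of 42 at 11 d, where 0.0452% did (7 probe sets). Without adjustment, 0 of 42 genes had a p under 0.05 at 4 h, against 2.27% of all probe sets. At 12 h 2 of 42 did (4.76%), against 4.61%, and at 11 d 4 of 42 did (9.52%), against 4.42%. The genes with no overlap between the 3 transected and the 3 sham arrays were few as well. There was 1 at 4 h (chrnb3a) against 4.55% of all probe sets, 2 at 12 h (glrba and cacna1c) against 9.29%, and 3 at 11 d (grik1a, glrba and scn3b) against 5.72%. As shares of the 42 genes these are 2.38%, 4.76% and 7.14%, all near or below the background. The F test that the injury difference is the same at all 3 times called 0 of 42 genes, where 0.0516% of all probe sets were called, and 1 gene, glrba, had an unadjusted p under 0.05 there, against 3.57% of probe sets.

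**Figure D2:**
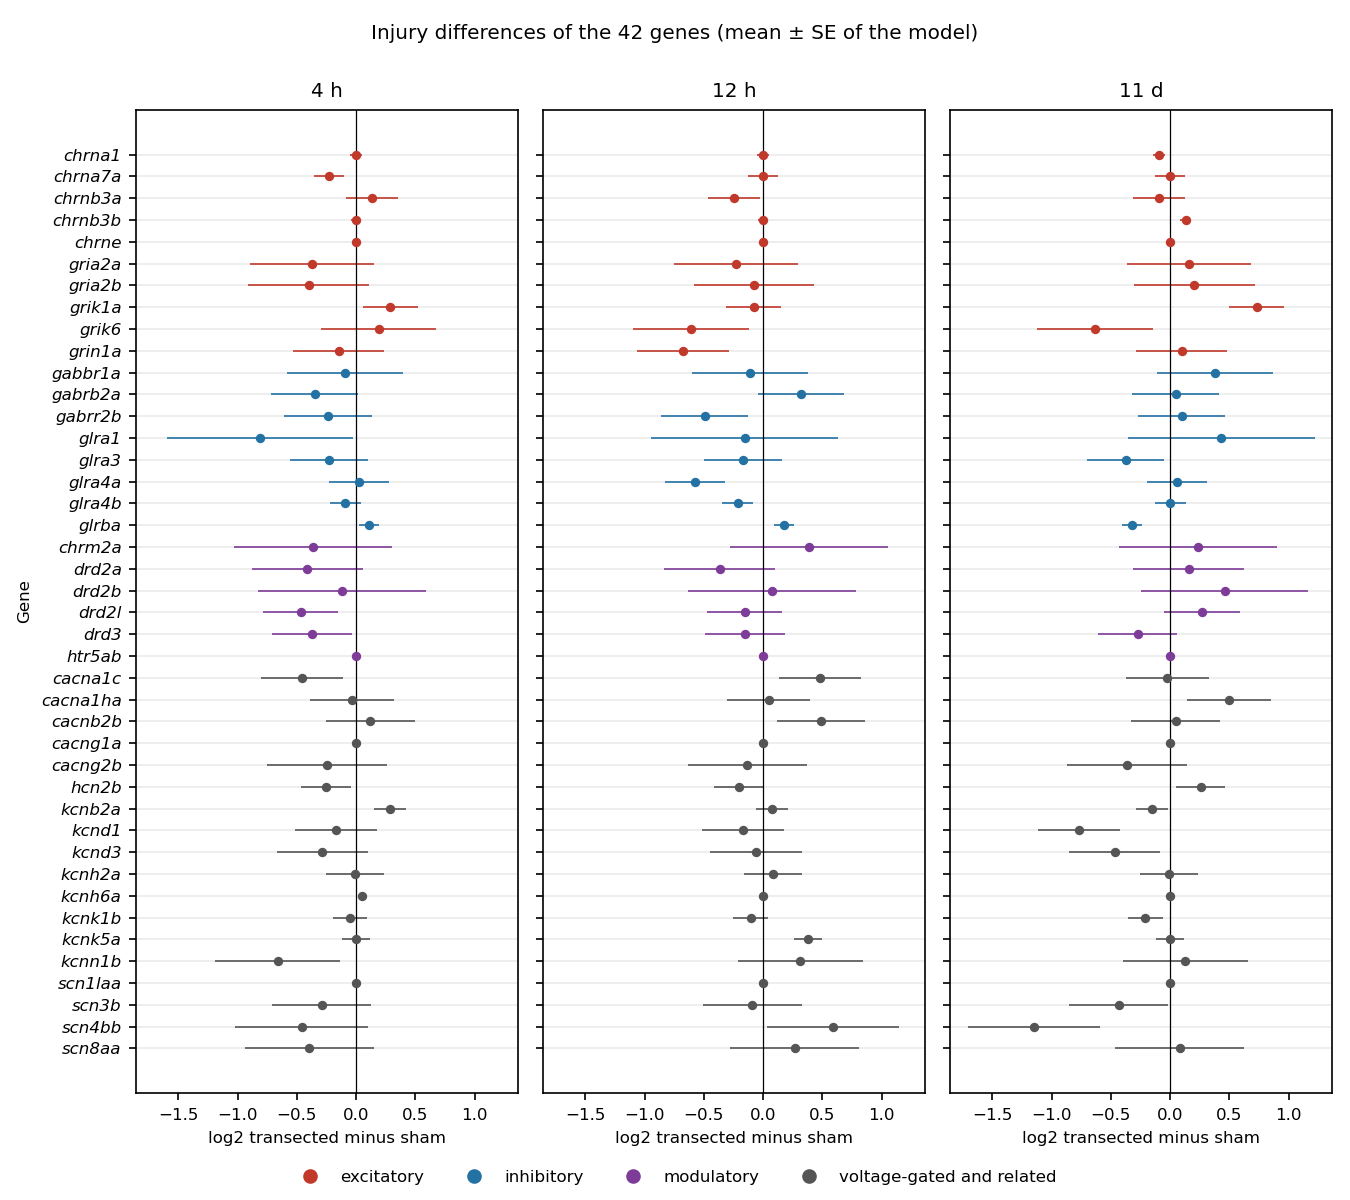
Log2 difference, transected minus sham, of each of the 42 genes at 4 h, 12 h and 11 d, coloured by class, with bars of 1 SE of the model (n = 3 arrays per group). Most bars cross 0, and glrba has short bars that lie above 0 at 12 h and below it at 11 d. The lowest point is scn4bb, at -1.15, and the highest is grik1a, at 0.73, both at 11 d.

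Among the excitatory receptors, the kainate receptor subunit gene grik1a stood out at 11 d. Its signal was 163, 159 and 188 on the transected arrays, against 102, 149 and 70.1 on the sham arrays. The 3 transected arrays lay above all 3 sham arrays, and the sham arrays were far apart. The group means were 169 and 102, a difference of 0.73 ± 0.23 (95% interval 0.22 to 1.24, unadjusted p = 0.0083, adjusted p = 0.632 in limma). The SE pools the spread of all 6 groups, so the SE, interval and p-values do not measure the spread at 11 d alone. Sham replicate 3 weighed most in this: without it the difference was 0.46, and without both arrays of replicate 3 at 11 d it was 0.39. At 4 h the grik1a difference was 0.29 ± 0.23 and at 12 h -0.08 ± 0.23, with overlapping groups at both times. The other kainate-family gene, grik6, was at or just above the floor on most arrays, and its differences were 0.19 ± 0.49 at 4 h, -0.61 ± 0.49 at 12 h and -0.63 ± 0.49 at 11 d. The 4 h value turned to -0.36 without transected replicate 1, the brightest of the 18 arrays for this gene.

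The subunits of the AMPA and NMDA receptors, the main carriers of fast glutamatergic transmission, did not separate transected from sham samples. Both gria2a and gria2b encode the AMPA receptor subunit that limits calcium entry. In order of time, gria2a differed by -0.37 ± 0.52, -0.23 ± 0.52 and 0.16 ± 0.52, and gria2b by -0.40 ± 0.51, -0.08 ± 0.51 and 0.20 ± 0.51. The spread between arrays of a group was large for both. The signal of gria2a was 235, 452 and 450 on the transected arrays at 4 h, against 307, 816 and 414 on the sham arrays of that time. Each group thus held low and high arrays, and replicate 1 was the lowest in both. For grin1a, the obligatory subunit of NMDA receptors, the signal at 12 h was 451, 625 and 1163 on the transected arrays, against 724, 1293 and 1424 on the sham arrays. Transected replicates 1 and 2 lay below all sham arrays and replicate 3 lay among them. The difference was -0.67 ± 0.39 (unadjusted p = 0.106, adjusted p = 1). A second probe set of grin1a gave 0.06 ± 0.59 at 12 h, an estimate too imprecise to tell whether the probe sets differ there.

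Of the 5 nicotinic acetylcholine receptor genes, only chrnb3a, which encodes an accessory subunit of neuronal receptors, was well above the floor. It was one of the steadier genes, with a within-group SD of 0.275 (log2). At 4 h its signal was 73.2, 70.5 and 70.1 on the transected arrays, against 66.4, 61.0 and 67.6 on the sham arrays. The groups did not overlap, but the distance between them was small, 0.13 ± 0.22 (adjusted p = 1). At 12 h its difference was -0.24 ± 0.22 and at 11 d -0.10 ± 0.22, and the 12 h value turned to 0.03 without transected replicate 3, its dimmest array. Its relative chrnb3b left the floor on 2 of 18 arrays only, transected replicates 1 and 2 at 11 d (19.2 and 17.5), which gave 0.13 ± 0.04 (unadjusted p = 0.010, adjusted p = 0.697). It was called without transected replicate 3 at 11 d (0.20, adjusted p = 0.0103), and without both arrays of that replicate (adjusted p = 0.0341), in both cases from signals just above the floor of 16. Its groups at the floor add no spread to the pooled SE, so the SE and p-values do not measure the spread at 11 d alone. The gene chrna7a, whose product forms calcium-permeable receptors, left the floor on 1 array (sham replicate 2 at 4 h, 25.7). The muscle subunit gene chrna1 did so on 1 array too (sham replicate 3 at 11 d, 19.4).

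The inhibitory receptors held the gene with the smallest p of all 42. This was glrba, which encodes the beta subunit that anchors glycine receptors to gephyrin at synapses. It was also the steadiest of the brighter genes, with a within-group SD of 0.105 and a span of 193 to 337 over 18 arrays. At 11 d its signal was 220, 239 and 193 on the transected arrays, against 275, 277 and 262 on the sham arrays. All transected arrays lay below all sham arrays. The means were 217 and 271, a difference of -0.32 ± 0.08 (95% interval -0.51 to -0.14, unadjusted p = 0.0021, adjusted p = 0.405). Under the alternatives tried the difference stayed between -0.40 and -0.24, with an adjusted p of 0.252 to 1. At 12 h the order was the opposite one. There the signal was 331, 337 and 328 on the transected arrays, against 294, 306 and 283 on the sham arrays, again without overlap. The difference was 0.18 ± 0.08 (unadjusted p = 0.058, adjusted p = 1). At 4 h it was 0.11 ± 0.08, with 259, 327 and 269 on the transected arrays, against 255, 274 and 260 on the sham arrays, which overlap. The limma F test of equal injury differences gave an unadjusted p of 0.0022 and an adjusted p = 0.796. Groups that do not overlap at 12 h and at 11 d, in opposite directions, occurred in 42 of the 15502 probe sets (0.271%). Since glrba was picked from these same values, the share is a description and no test.

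The alpha subunits, which bind glycine, showed other patterns. For glra1, the adult alpha subunit whose mutation causes startle disease in humans, the signal at 4 h was 21.9, 102 and 120 on the transected arrays, against 38.6, 257 and 146 on the sham arrays. Replicate 1 was the lowest of its group in both, and sham replicate 2 the highest of all 18 arrays. The difference was -0.81 ± 0.79 (95% interval -2.52 to 0.90, unadjusted p = 0.323, adjusted p = 1), the largest of the 42 genes at 4 h. Each transected array was below the sham array of its number, by 0.82, 1.32 and 0.29, and with the replicate number as a block the SE was 0.27 (unadjusted p = 0.023, adjusted p = 0.855). At 12 h glra1 differed by -0.16 ± 0.79 and at 11 d by 0.43 ± 0.79. Over all 18 arrays it spanned 21.9 to 257, or 11.7-fold, the widest span of the brighter genes.

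For glra4a the largest difference was at 12 h, where the signal was 53.9, 80.8 and 64.7 on the transected arrays, against 107, 117 and 74.0 on the sham arrays. Sham replicates 1 and 2 lay above every transected array and sham replicate 3 lay among them. The difference was -0.57 ± 0.25 (95% interval -1.12 to -0.02, unadjusted p = 0.042, adjusted p = 1). A second, dimmer probe set of glra4a gave -0.17 ± 0.37 at that time. At 4 h and 11 d the differences were 0.02 ± 0.25 and 0.06 ± 0.25. For glra3 they were -0.23 ± 0.33, -0.17 ± 0.33 and -0.38 ± 0.33 in order of time, and glra4b left the floor on 2 arrays, both sham. The GABA receptor genes were dim. The GABA-A subunit genes gabrb2a and gabrr2b lay above the floor on 15 and 12 arrays and differed by at most 0.49 either way. The largest of these was gabrr2b at 12 h, at -0.49 ± 0.37, with 30.0, 16 and 16 on the transected arrays, against 39.3, 16 and 34.0 on the sham arrays. For gabbr1a, the ligand-binding subunit of the GABA-B receptor, the 11 d difference was 0.38 ± 0.49. It came from transected replicate 3, at 52.5, and was -0.19 without that array.

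**Figure D3:**
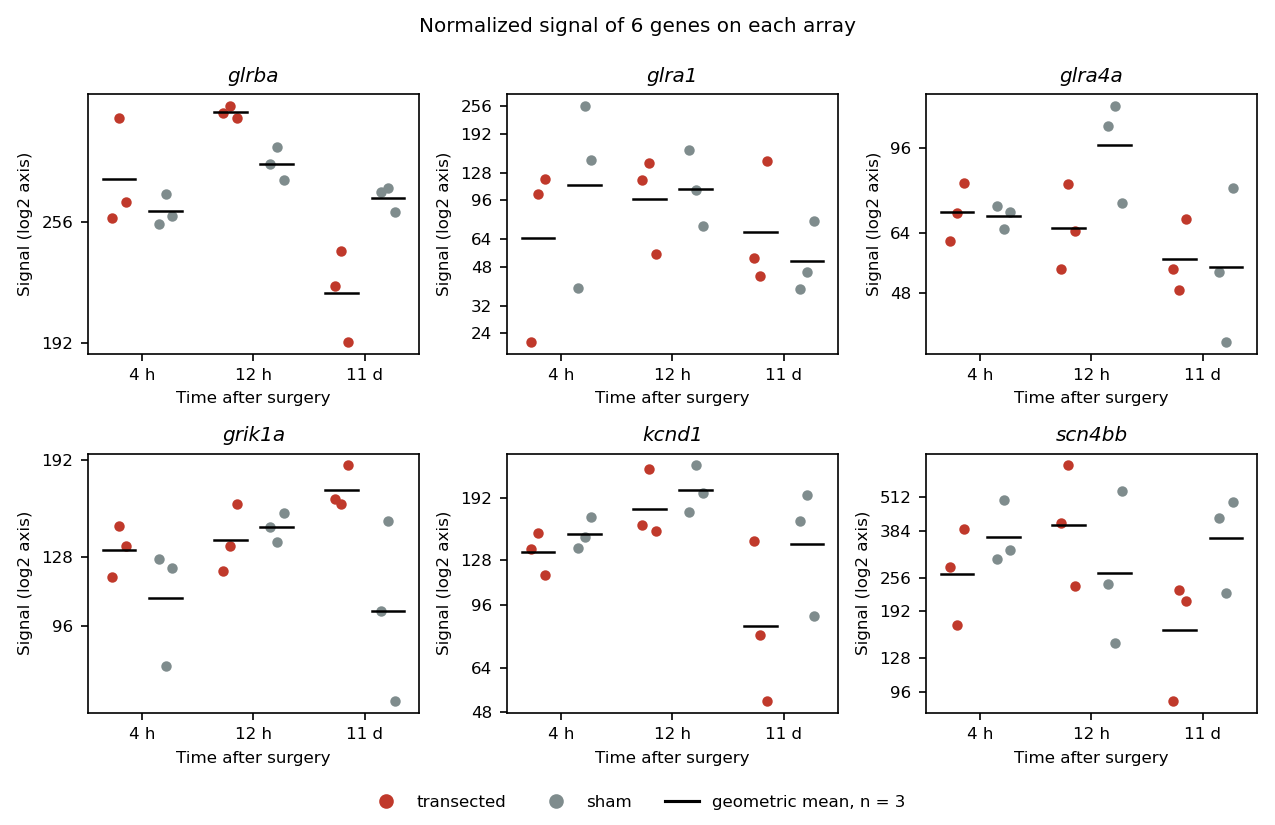
Normalized signal of glrba, glra1, glra4a, grik1a, kcnd1 and scn4bb on each of the 18 arrays, with transected arrays in red, sham arrays in grey and a line at each group's geometric mean (n = 3). The vertical axes are log2 axes and differ between genes. For glrba the groups do not overlap at 12 h, with transected higher, or at 11 d, with transected lower, while glra1 spans 21.9 to 257 with overlap at all 3 times.

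The modulatory receptors were the least measurable class, since only chrm2a and drd2b of 6 genes were among the brighter ones. The gene chrm2a encodes a muscarinic receptor that lowers cyclic AMP and opens potassium channels. Its signal at 4 h was 21.8, 73.3 and 91.1 on the transected arrays, against 26.2, 112 and 105 on the sham arrays. Replicate 1 was low in both groups, and the difference was -0.36 ± 0.67. At 12 h it was 0.39 ± 0.67 and at 11 d 0.24 ± 0.67. The 4 dopamine receptor genes drd2a, drd2b, drd2l and drd3 encode inhibitory receptors of the same family. Their differences at 4 h were all below 0, between -0.47 and -0.12, with a smallest unadjusted p of 0.166, for drd2l. Sham replicate 2 was the highest of the 6 arrays for all 4 genes, at 45.8, 77.1, 42.2 and 39.0 in the order named. The median of the same-number differences over the 4 genes was 0, -1.13 and 0.0032 for replicates 1, 2 and 3. In replicate 1, drd2a, drd2l and drd3 were at the floor on both arrays, so that 0 does not measure a lack of change. At 11 d drd2b differed by 0.46 ± 0.71, with 21.4, 28.4 and 84.0 on the transected arrays, against 20.6, 24.0 and 39.6 on the sham arrays. Without transected replicate 3 this was -0.13. For drd3, above the floor on 10 of 18 arrays, the differences were -0.37 ± 0.34, -0.15 ± 0.34 and -0.27 ± 0.34 in order of time. The serotonin receptor gene htr5ab was at the floor throughout.

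Potassium channel genes were the largest family, with 8 members. At 11 d kcnd1, which encodes an A-type channel that delays firing, had 145, 79.0 and 51.6 on the transected arrays, against 165, 196 and 89.6 on the sham arrays. Each transected array lay below the sham array of the same replicate number, while the groups overlapped. The difference was -0.76 ± 0.35 (95% interval -1.51 to -0.01, unadjusted p = 0.046, adjusted p = 1). At 4 h and also at 12 h it was -0.17 ± 0.35. The second A-type gene, kcnd3, differed by -0.47 ± 0.39 at 11 d, with 38.3, 33.7 and 45.4 on the transected arrays, against 57.0, 37.2 and 73.1 on the sham arrays. Transected replicates 1 and 3 lay between sham values, and the groups overlapped. Its values at 4 h and 12 h were -0.28 ± 0.39 and -0.06 ± 0.39. For kcnn1b, a channel opened by calcium that shapes the afterhyperpolarisation, the signal at 4 h was 42.2, 103 and 102 on the transected arrays, against 56.0, 256 and 124 on the sham arrays. Each transected array was below the sham array of its number, and the difference was -0.66 ± 0.53 (unadjusted p = 0.230, adjusted p = 1).

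The ERG-type channel gene kcnh2a, whose current controls repolarisation, differed little at any time, by -0.01 ± 0.25, 0.08 ± 0.25 and -0.01 ± 0.25. Its 95% interval at 11 d was -0.54 to 0.52. It spanned 2558 to 4747 over 18 arrays. The leak channel gene kcnk5a left the floor on 4 of 18 arrays, all at 12 h: 25.4, 25.5 and 18.2 on the transected arrays, against 16, 16 and 20.9 on the sham arrays. Transected replicates 1 and 2 were highest, and the groups overlapped through replicate 3. The difference was 0.38 ± 0.12 (unadjusted p = 0.0063, adjusted p = 0.719), and 0.54 without transected replicate 3 (adjusted p = 0.0293). All arrays of this gene at 4 h and 11 d were at the floor and add no spread to the pooled SE. The SE and p-values thus do not measure the spread at 12 h alone. The delayed rectifier gene kcnb2a, above the floor on 8 arrays, differed by 0.29 ± 0.14 at 4 h (unadjusted p = 0.057). There the signal was 19.9, 16 and 23.4 on the transected arrays, and all sham arrays were at the floor, so the groups overlapped. Here too, groups at the floor add no spread to the pooled SE.

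Of the 4 sodium channel genes, the 3 measured above the floor all had negative differences at 4 h, none of which passed: -0.46 ± 0.56 for scn4bb, -0.40 ± 0.54 for scn8aa and -0.29 ± 0.42 for scn3b. The gene scn8aa encodes a pore subunit found at the axon initial segment and nodes of Ranvier. Its signal at 4 h was 78.3, 284 and 163 on the transected arrays, against 95.4, 328 and 265 on the sham arrays, with replicate 1 lowest and replicate 2 highest in both groups. The largest difference of any of the 42 genes belonged to scn4bb, an auxiliary beta subunit known in mammals for its part in resurgent current. At 11 d its signal was 88.5, 231 and 210 on the transected arrays, against 426, 225 and 489 on the sham arrays. Transected replicate 2 lay above sham replicate 2, so the groups overlapped, and sham replicates 1 and 3 lay above all others. The difference was -1.15 ± 0.56 (95% interval -2.36 to 0.06, unadjusted p = 0.061, adjusted p = 1). At 12 h it was 0.59 ± 0.56, with 408, 673 and 237 on the transected arrays, against 243, 145 and 540 on the sham arrays. The other beta subunit gene, scn3b, had 56.7, 46.7 and 40.1 on the transected arrays at 11 d, against 70.4, 63.5 and 58.4 on the sham arrays. The groups did not overlap, and the difference was -0.43 ± 0.42 (unadjusted p = 0.321, adjusted p = 1).

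Among calcium channels, cacna1c, the pore of the L-type channel that couples activity to gene expression, had differences of both signs. At 12 h its signal was 56.8, 53.1 and 46.1 on the transected arrays, against 28.9, 40.1 and 44.1 on the sham arrays. The groups did not overlap, though transected replicate 3 lay close above sham replicate 3. The difference was 0.48 ± 0.35 (unadjusted p = 0.193), against -0.46 ± 0.35 at 4 h and -0.02 ± 0.35 at 11 d. The auxiliary subunit gene cacnb2b differed by 0.49 ± 0.38 at 12 h, with 73.6, 77.6 and 37.0 on the transected arrays, against 48.0, 41.4 and 38.4 on the sham arrays. Its values were 0.12 ± 0.38 at 4 h and 0.05 ± 0.38 at 11 d, and the 4 h value turned to -0.22 without sham replicate 1. The T-type gene cacna1ha differed by 0.50 ± 0.35 at 11 d, with 35.5, 29.3 and 19.4 on the transected arrays, against 16.2, 27.6 and 16 on the sham arrays. The gene cacng2b encodes stargazin, which carries AMPA receptors to the synapse, and it differed by -0.25 ± 0.50, -0.13 ± 0.50 and -0.36 ± 0.50. The pacemaker channel gene hcn2b was steady, with a within-group SD of 0.263, and differed by -0.26 ± 0.21, -0.20 ± 0.21 and 0.26 ± 0.21 in order of time. None of these passed.

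Set side by side, the class medians were as follows, and no test was made of them. At 4 h the median difference was 0 for the excitatory, -0.16 for the inhibitory, -0.37 for the modulatory and -0.11 for the voltage-gated and related genes. Single arrays moved these values: leaving out 1 array of that time at a time, the modulatory median ranged from -0.71 to -0.00013 and the inhibitory one from -0.30 to 0.012, both highest without sham replicate 2. At 12 h the medians were -0.08, -0.16, -0.08 and 0.02 in the same order, and at 11 d they were 0.05, 0.05, 0.20 and -0.01. The excitatory medians took in nicotinic genes at or near the floor. The 5 nicotinic genes had a median of 0 at each time, and the 5 ionotropic glutamate receptor genes had medians of -0.15, -0.23 and 0.16 in order of time. Over all tested probe sets the median was 0 at each time. Counted over the 42 genes, 8 differences were above 0 and 27 below at 4 h, 13 above and 21 below at 12 h, and 19 above and 15 below at 11 d, the rest being 0. Over all probe sets 6282 were above 0 and 6494 below at 4 h, 6168 above and 6575 below at 12 h, and 6036 above and 6739 below at 11 d. The count at 4 h changed with the arrays left out. Of the 22 brighter genes 17 lay below 0 at 4 h, against 4347 of the 8984 probe sets of that brightness. This count was 16 without both arrays of replicate 1. It was 11 without transected replicate 1 and 11 without sham replicate 2, where the array of the same number stayed in. At 11 d the count below 0 was 10 of 22, and 18 without transected replicate 3.

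The brighter genes differed widely among themselves in the spread between arrays of the same group. A within-group SD of at least 0.5 (log2) was found in 10 of the 22 genes (45.5%), against 21.4% of all probe sets with a mean signal of at least 32. Their median SD was 0.483, against 0.368 for those probe sets. The 10 genes were glra1, drd2b, chrm2a, scn4bb, scn8aa, kcnn1b, gria2a, gria2b, cacng2b and scn3b, which come from all 4 classes. At 4 h, transected replicate 1 was the lowest of the 6 arrays for 14 of the 22 genes (63.6%), against 21.0% of the 8984 probe sets, and sham replicate 2 was the highest for 12 (54.5%), against 23.6%. At 11 d transected replicate 3 was the highest of the 6 arrays for 10 of 22 genes (45.5%, against 22.3% of probe sets). The steady genes glrba, hcn2b, chrnb3a, grik1a, kcnh2a and glra4a, with an SD of 0.317 or less, come from the excitatory, inhibitory and voltage-gated classes. This SD pools all groups, and the sham arrays of grik1a at 11 d were far apart.

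**Figure D4:**
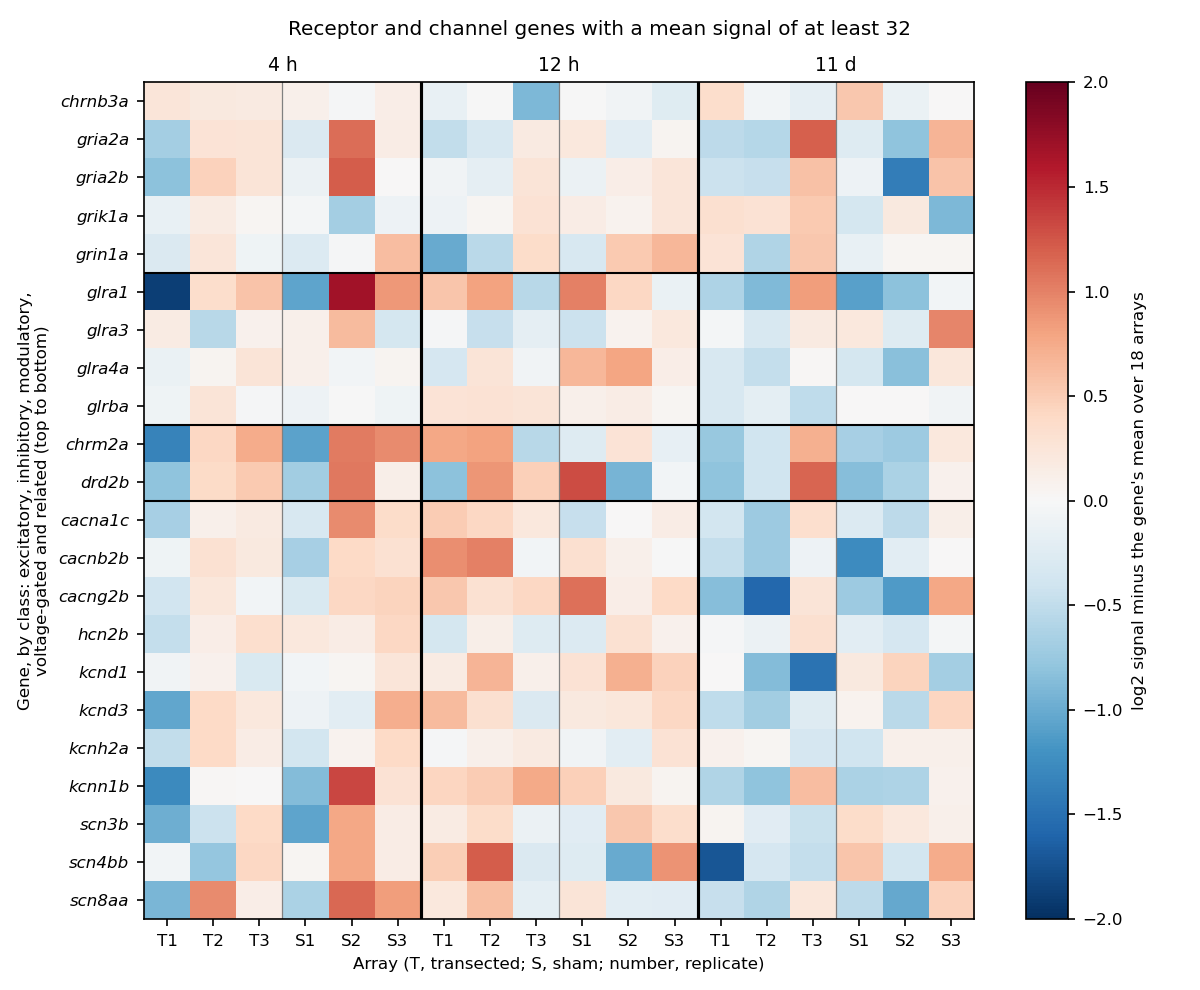
Log2 signal minus the gene's own mean over 18 arrays for the 22 brighter genes (rows, by class) on each array (columns, transected before sham at each time). Columns T1 and S1 at 4 h and T1, T2, S1 and S2 at 11 d are mostly blue (below the mean) across classes, while S2 at 4 h is red for most genes, and the rows of glrba, hcn2b and kcnh2a are pale.

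Without spinal injury, time after surgery also made no difference that passed. The F test over the 3 sham groups called 0 of 42 genes, where 0.0258% of all probe sets were called, and 1 gene had an unadjusted p under 0.05, against 7.05%. That gene was glra4a (unadjusted p = 0.019, adjusted p = 0.587 in limma). Its mean was 69.5 in sham samples at 4 h, 97.6 at 12 h and 54.4 at 11 d. The 12 h sham arrays lay above all 4 h sham arrays but overlapped with those of 11 d. Next came grik1a (unadjusted p = 0.106, adjusted p = 0.807 in limma), whose sham means were 108, 145 and 102 in order of time. For hcn2b they were 151, 131 and 111, and its 11 d sham arrays all lay below its 4 h sham arrays, a difference of -0.45 ± 0.21 (unadjusted p = 0.053, adjusted p = 0.836). For glrba the sham means were 263, 294 and 271, so the differences of 12 h over 4 h (0.16 ± 0.08) and between the injury groups at 12 h (0.18 ± 0.08) were of like size. Its 12 h sham arrays all lay above its sham arrays of 4 h and of 11 d, again without overlap. For grik1a and kcnd1 too, all 12 h sham arrays lay above all 4 h sham arrays. How often sham groups do not overlap over all probe sets was not counted. The sham 12 h group cannot be told apart from its RNA quality, since the GAPDH ratio was above 3 on every 12 h array. Between sham samples of 11 d (1.39 to 2.83) and 4 h (1.53 to 1.78) the ratios overlapped.

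Genes that make, clear and anchor transmitters and receptors were set beside the 42. No member of these lists passed at any time. Of 21 genes for anchoring and trafficking of receptors, 14 lay below 0 and 6 above at 4 h (median -0.08), 12 below and 8 above at 12 h (-0.11), and 13 below and 7 above at 11 d (-0.06). The list also holds lrrc40, lrrc42 and nsfl1c, which only its name patterns caught. In it, nsfa, the ATPase that maintains synaptic vesicle fusion and AMPA receptor delivery, differed by -0.37 ± 0.16 at 4 h (1579 in transected and 2036 in sham samples, unadjusted p = 0.043). Of 19 genes for synthesis and uptake of transmitters the median was -0.10 at 4 h, 0.05 at 12 h and 0 at 11 d. It includes slc6a17, slc6a19a.1 and slc6a19b, which carry neutral amino acids. Glutamine synthetase, which clears glutamate in glia, is encoded by glula and glulb. At 11 d glula differed by 0.41 ± 0.12 (2400 in transected and 1802 in sham samples, unadjusted p = 0.0042, adjusted p = 0.507) and glulb by 0.66 ± 0.24 (1605 and 1018, adjusted p = 0.835). For gad1b, which makes GABA, the differences were -0.37 ± 0.16 at 4 h (1894 and 2447) and 0.31 ± 0.16 at 11 d (2432 and 1967). Of 33 genes listed for other channels, such as connexins, chloride channels and anoctamins, the median was 0 at each time. That list also holds trpc4apa, trpc4apb and stim1a, which do not encode channels themselves. Several of its genes, such as clcn2c, gja2 and panx1a, were at the floor on every array, where the difference can only be 0. The connexin gene gja3 was at the floor on all sham arrays at 12 h, where the transected group mean was 35.2 (adjusted p = 0.697 in limma). It left the floor on only 4 arrays of the series, which include transected samples at 4 h and sham samples at 11 d. Not every transected array at 12 h was thus above the floor, so the groups overlapped.

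Of 13 leukocyte and microglia markers, 10 lay above 0 at 11 d (median 0.28), against 4285 of the 8984 probe sets with a mean signal of at least 32. None of the 13 passed. Their summed signal was 9827 to 11232 on the transected arrays, against 6567 to 8010 on the sham arrays. The neutrophil and macrophage gene lyz was at the floor on all 3 transected arrays. At 4 h and 12 h the ranges of the summed signal overlapped. All 5 erythrocyte markers lay below 0 at 11 d (median -0.37), where their summed signal was 6634 to 11535 on the transected arrays and 8237 to 15062 on the sham arrays. Of all markers, 2 passed at 11 d, both lower in transected samples: alas2, for haem synthesis in red cells (45.3 and 222 in transected and sham samples, adjusted p = 0.0333), and cyp19a1b, the aromatase of radial glia (31.6 and 395, adjusted p = 0.0119). Of the 9 radial glia and astrocyte markers, cyp19a1b included, 5 lay above 0 at 11 d and 4 below (median 0.04), with glula at 0.41 and glulb at 0.66 among those above. Of 5 oligodendrocyte and myelin markers 3 lay below 0 (median -0.16), as did all 3 endothelium markers (median -0.23), and none of these passed. The 10 neuron markers had a median of 0.02 at 11 d, and their summed signal was 17432 to 23298 on the transected arrays and 17647 to 19840 on the sham arrays. The part of these cell types in the receptor and channel values was not tested.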

How the data were processed

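RNA from laser-captured tissue was column-purified, amplified and hybridised as biotin-marked cDNA, per the labels' protocols. The authors deposited linear intensities, 1 per probe set and array. The summarising program and the genome build are both not given in the sources used here. Trimmed by 2% at both ends, the deposited intensities averaged 150.0 on most arrays, but 92.6 (transected) and 100.4 (sham) in replicate 3 at 4 h.

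Intensities were quantile normalized, floored at 16 and taken to log2 (R 4.3.3, limma 3.58.1). The 115 control probe sets were left out, and lmFit and eBayes fitted 6 group means to the other 15502, with 12 residual degrees of freedom. P-values were adjusted by Benjamini-Hochberg over all of them, with a threshold of 0.05. Each gene is represented by its brightest probe set. The scripts were tested on simulated data.

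Genes named are, at each time, the 5 with the smallest p in each direction among those above the floor on at least 3 of 6 arrays, the 6 with the smallest p in each F test, all without overlap, and glra1. The members and lists were chosen with earlier results of these data known, so no p is given for a list. Other genes above (kcnh2a, gria2a, gria2b and scn8aa among them) describe their families and were chosen after their values were seen.

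Same-numbered transected and sham arrays deviated together at 4 h (correlations 0.62, 0.38 and 0.26) and at 11 d (0.23, 0.48 and 0.64), each over the 0.1 set as the minimum, so the numbers were taken to pair samples there. Some arrays of unlike number, however, did so too. At 4 h these were transected 3 with sham 2 (0.23) and transected 2 with sham 3 (0.105). At 11 d they were transected 1 with sham 2 (0.34) and transected 2 with sham 1 (0.22). At 12 h the correlations of same-numbered arrays were 0.11, -0.01 and 0.14, and the numbers are not read as pairs there. The model with the replicate number as a block nonetheless uses the number at all 3 times, 12 h included.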

Additional observations from a re-analysis of the deposited data

Results flagged for a closer look

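The glycine receptor beta subunit gene glrba had injury differences of opposite sign at 12 h and 11 d. Every transected array lay above every sham array at 12 h (332 in transected and 294 in sham samples, log2 difference 0.18), and every transected array lay below every sham array at 11 d (217 and 271, log2 difference -0.32). As a description, 11 d minus 12 h was -0.50 ± 0.12 (SE, limma, unadjusted p = 0.0011, adjusted p = 0.635 over 15502 probe sets), which does not pass the adjustment. The gene and these times were picked from the same values, and the unadjusted p does not allow for that choice. The limma F test over all 3 times gave an unadjusted p of 0.0022 and an adjusted p of 0.796. Without injury, the 12 h sham arrays also lay above all sham arrays of 4 h and of 11 d, and the share of probe sets with this order was not counted. The GAPDH 3′ over 5′ ratio was 3.15 to 5.40 at 12 h and 1.39 to 2.88 at 11 d, and its part was not tested.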

How the results depend on the processing

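Over 30 gene differences and 472 combinations with an alternative, 9 changed sign and 25 of the 30 kept their sign throughout. Many of these combinations could not change a sign. The trended prior, the block and the restriction to brighter probe sets leave a log2 difference as it is, and so does leaving out arrays of another time. The 9 of 472 is therefore no measure of how firm the signs are. The reversals were grik6 at 4 h (-0.54 without both arrays of replicate 1, -0.36 without transected replicate 1), cacnb2b at 4 h (-0.0097 with a floor of 32, -0.11 without both arrays of replicate 1, -0.22 without sham replicate 1), chrnb3a at 12 h (0.030 without transected replicate 3), and at 11 d gabbr1a (-0.00076 without both arrays of replicate 3, -0.19 without transected replicate 3) and drd2b (-0.13 without transected replicate 3). Without 1 array at a time, these differences ranged from -0.36 to 0.51 (grik6), -0.22 to 0.31 (cacnb2b), -0.42 to 0.030 (chrnb3a), -0.19 to 0.66 (gabbr1a) and -0.13 to 0.86 (drd2b). The count of genes called was 0 with scaling instead of quantile normalization, other floors, fewer dim probe sets, a trended prior and the mean of all probe sets. Leaving out 1 array gave 0 to 1 at 12 h (kcnk5a) and 0 to 1 at 11 d (chrnb3b), and leaving out both arrays of replicate 3 gave 1 at 11 d (chrnb3b). Both of these genes were at the floor on most arrays.

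SEs and p-values above are from the model without pairs, except where the block is named. With the replicate number as a block, 0 of 42 genes were called at each time, and no call of a named gene changed. The block took the numbers as pairs at 12 h too, so its SEs at every time draw in part on the 12 h arrays. In limma with the block, the SE was smaller for kcnn1b at 4 h (0.25, unadjusted p = 0.033, adjusted p = 0.894) and kcnd1 at 11 d (0.21, unadjusted p = 0.010, adjusted p = 0.428). It was also less than the SE without pairs for most other brighter genes, such as gria2a (0.24 against 0.52), chrm2a (0.26 against 0.67), scn8aa (0.20 against 0.54) and cacng2b (0.16 against 0.50). Among the brighter genes it was larger only for glra3, scn4bb (0.73 against 0.56) and grik1a. For grik1a at 11 d it was 0.27 (unadjusted p = 0.032, adjusted p = 0.583). For many genes the SEs above thus include spread between the numbered pairs. Over all probe sets there were 0, 2 and 6 calls (4 h, 12 h, 11 d) with the block, against 0, 4 and 7 without it, and the F test of equal differences made 1 call, against 8. Among the brightest 10334 probe sets there were 0, 0 and 43 calls with the block, against 0, 0 and 15 without it, an alternative added after seeing the data.

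Class medians, given as descriptions, depended on dim genes and on single arrays. With the brightest 2/3 of probe sets, with or without the block, the excitatory median was -0.0072 at 4 h, -0.24 at 12 h and 0.13 at 11 d, and the voltage-gated median -0.28 at 4 h. With a floor of 8 the excitatory median was -0.0080 at 4 h and 0.13 at 11 d, and with a floor of 32 it was 0 at 11 d. It was -0.11 at 4 h without both arrays of replicate 1, and 0 at 11 d without both of replicate 3. Without 1 array at a time the excitatory median ranged from -0.0032 to 0.012 at 4 h, -0.10 to -0.017 at 12 h and -0.070 to 0.067 at 11 d. The voltage-gated median ranged from -0.23 to 0 at 4 h and -0.17 to 0 at 11 d, the inhibitory from -0.30 to 0.012 at 4 h and -0.091 to 0.29 at 11 d, and the modulatory from -0.71 to -0.00013 at 4 h and -0.16 to 0.38 at 11 d. The count of brighter genes that were lower ranged from 11 to 18 at 4 h and from 7 to 18 at 11 d. The cause of these changes was not tested. Genes near the floor of 16 carry little information on either direction.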
